A study of Arabidopsis thaliana with 60 samples.

Results

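The regions described here are the H3K27me3 peaks of the pericentromeres of Arabidopsis thaliana, the gene-poor and repeat-rich sequence that flanks each centromere. A peak was a member when it lay wholly inside 1 of 5 windows on TAIR10: chromosome 1 from 11.5 to 17.7 Mb, chromosome 2 from 1.1 to 7.2 Mb, chromosome 3 from 10.3 to 17.3 Mb, chromosome 4 from 1.5 to 6.3 Mb and chromosome 5 from 9.0 to 16.0 Mb. Of 121877 peaks in 18 lists, 19131 were members, 102712 lay in the chromosome arms and 34 crossed a window bound. The windows span 31.1 Mb, which is 26.1% of the sequence, and hold 3380 of 27432 protein-coding genes and 3777 annotated pseudogenes. The pseudogene class is that of the gene table and was not split into transposon-derived and other genes.

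The peaks come from ChIP-seq, in which chromatin fragments bound by an antibody to H3K27me3 are sequenced, on seedlings grown for 8 days. In the single-end libraries the genotypes were Landsberg erecta wild type (Ler), the loss-of-function alleles ult1-2 and ult1-3 and the gain-of-function line 35S::ULT1, all 4 given as Ler background, and Columbia wild type (Col-0) with the loss-of-function mutant ref6-3 in that background. Each had 2 libraries, numbered 1 and 3 in the Ler group and 1 and 2 in the Col-0 group, and each library had its own peak list. The paired-end lists covered Col-0, swn-7, clf-28, ult1-3 in Col-0, and the double mutants ult1-3 swn-7 and ult1-3 clf-28, with 1 list per genotype. In 35S::ULT1 the ULT1 gene is driven by the constitutive 35S promoter. Several ChIP reactions made from a single nuclear extract were combined for a library. The labels do not state whether a genotype's libraries came from separate batches of plants, so the library-to-library spread behind the p-values here may be technical. The test on single genes also sets a floor on that spread, so its p-values do not reflect measured spread alone. Whole seedlings mix many tissues, so a mark in fewer cells and a weaker mark in all cells cannot be told apart.

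H3K27me3 is the repressive mark of Polycomb repressive complex 2, in which CLF and SWN are alternative methyltransferases. REF6 removes the mark, and ULT1 is a SAND-domain protein classed with the trithorax group, which opposes Polycomb repression. In plants H3K27me3 lies mostly over single genes in euchromatin, while pericentromeric transposons carry DNA methylation and H3K9 methylation.

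Peaks in the windows were fewer and narrower than in the arms. Peaks covered between 11.1% and 13.3% of window sequence in the 12 single-end libraries, against 21.7% to 27.05% of arm sequence. No library's window value reached any arm value. The difference, windows minus arms, was -12 ± 2.27 percentage points of cover (mean ± SD over 12 libraries) and -33.1 ± 7.38 peaks per Mb, each lower in 12 of 12 libraries (sign-flip permutation test, exact and two-sided, p = 0.000488, the smallest this test can give; adjusted p = 0.00122 over 5 measures). The median width differed by -117 ± 103 bp, with 7 libraries lower and 5 equal (exact permutation p = 0.0156, adjusted p = 0.026). This width difference missed the threshold with windows wider by 0.5 Mb, at -66.7 bp, and when only peaks with q at or under 1e-10 were kept, at -125 bp. The 2 libraries of a genotype entered these sign-flip tests as separate units, so the p-values do not measure spread between genotypes. Control reads per kb of peak, as the lists give them, did not pass (0.04 higher in the windows on the log2 scale, exact p = 0.135). In Col-0, 9 and 11 window peaks had control reads per kb at least 3 times the list's median, against 0 and 3 arm peaks. In ref6-3 there were 16 and 3 against 2 and 1, and in the Ler group 0 to 5 against 0 to 2.

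**Figure D1:**
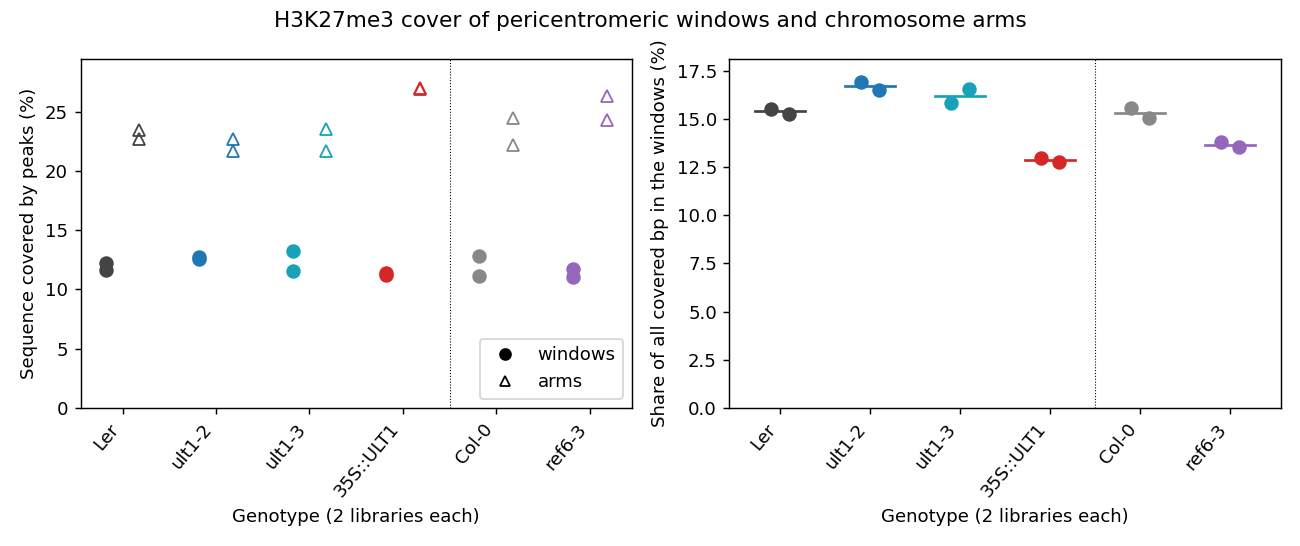
Left, percent of sequence covered by H3K27me3 peaks in the windows (filled circles) and arms (open triangles) of each single-end library. Right, the windows' share of all covered bp, with points for libraries and a line for the mean of 2. Window cover stays between 11.1% and 13.3%, and the share is lowest in 35S::ULT1 among the 4 Ler-background genotypes.

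Within the windows the peaks were concentrated at the flanks. In Ler, cover was 1.25% ± 0.0537 (SD, n = 2) within 0.5 Mb of the window middle and 31.4% ± 0.849 at 3 to 3.5 Mb from it. Col-0 had 1.58% ± 0.464 and 33.9% ± 2.55 in the same bins. The windows differ in length, so the innermost bin held 5000000 bp and the outermost 2300000 bp. The outermost bin lies mostly on chromosomes 3 and 5, whose windows are 7 Mb long. The chromosome 4 window, 4.8 Mb long, does not reach it. How much this change of chromosomes adds to the rise was not tested. The rise was seen in all 6 single-end genotypes, and in the second bin ult1-3 stood at 3.96% ± 2.01 against 1.58% ± 0.0453 in Ler. The chromosomes also differed: in Ler 13.4% ± 0.497, 9.40% ± 0.294, 14.0% ± 0.531, 7.58% ± 0.200 and 13.7% ± 0.632 of the windows of chromosomes 1 to 5 was covered. The windows of chromosomes 2 and 4 thus had the least cover in Ler.

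**Figure D2:**
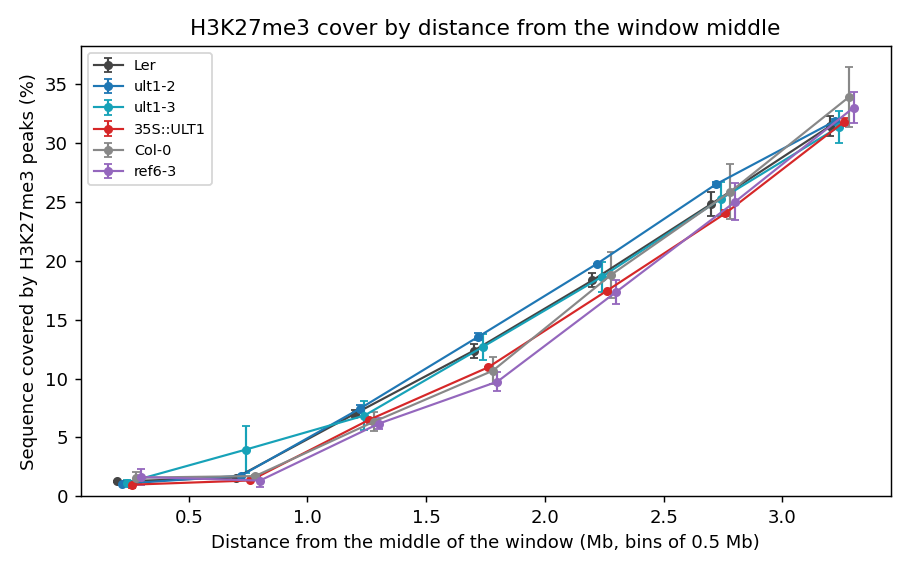
Percent of sequence covered by H3K27me3 peaks against distance from the middle of the window, in bins of 0.5 Mb, for each single-end genotype. Each bin pools the windows long enough to reach it, and the chromosome 4 window does not reach the outermost bin. Points are means of 2 libraries, bars are SD, and points are offset sideways for legibility; cover rises from under 2% in the innermost bin to over 31% in the outermost.

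Window peaks touched protein-coding genes less often than arm peaks, and pseudogenes alone more often. Between 65.8% and 76.2% of window peaks touched a protein-coding gene (median 70.2% over 12 libraries), and a median of 10.8% touched a pseudogene but no protein-coding gene. In the arms the medians were 83.1% and 2.16%, and for neither share did the ranges over libraries overlap; the difference was not tested. A gene counted as marked at a peak cover of 50% or more of its length. In Ler 28.6% ± 0.293 of protein-coding genes in the windows were marked, but only 4.67% ± 0.243 of pseudogenes. In the arms the values were 25.7% and 31.1%. Whether the pseudogenes of windows and arms are of the same kinds was not tested. Of the 3380 protein-coding genes, 658 (19.5%) were marked in all 12 single-end libraries and 2072 (61.3%) in none.

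The share of protein-coding genes marked was slightly higher in the windows than in the arms, by 1.78 ± 2.34 percentage points over the 12 libraries (sign-flip permutation test, exact p = 0.0273, adjusted p = 0.0342). It was higher in 8 libraries and lower in the 4 libraries of 35S::ULT1 and ref6-3. Here too the libraries of a genotype were separate units, so this p does not measure spread between genotypes. The direction rests on the bounds: with windows narrower by 0.5 Mb it was -1.56 points (exact p = 0.0679), and with windows wider by 0.5 Mb it was 1.1602 points (exact p = 0.0732). It also missed the threshold without ult1-2 library 1 (1.52 points), without ult1-2 library 3 (1.52) or without ult1-3 library 3 (1.61).

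The single-end genotypes were also profiled for a K4 methylation mark, written H4K4me3 in the labels, and its peaks met H3K27me3 peaks less often in the windows than in the arms. Peaks of K4 found in both lists of the genotype touched 14.0% and 14.4% of window H3K27me3 peaks in the Ler libraries, against 25.6% and 25.9% in the arms. The lowest values were those of ult1-3, at 10.7% and 11.8% of window peaks, and those of ref6-3, at 19.4% and 20.7%, and 35S::ULT1, at 18.97% and 20.1%, overlapped at the upper end. Over 6 genotypes windows minus arms was -12.7 ± 2.80 percentage points, lower in each (sign-flip exact permutation test, p = 0.03125, the smallest that 6 genotypes allow). K4 peaks themselves covered 4.42% to 5.93% of the windows and 18.7% to 23.1% of the arms.

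Peaks of all 12 single-end libraries were merged into 1607 window domains, of which 607 (37.8%) had a peak in every library and 131 (8.15%) in 1 library only. In the arms 47.5% of domains had a peak in every library. In all 18 lists 275 genes were marked. None of them can lie on chromosome 4, since the paired-end lists hold no peak in its window. Among the 275 genes the symbols under the widest peaks were TGG1 and TGG2, the myrosinases that cleave glucosinolates. Their peak measured 20.7 kb in the median list (20700 bp); the narrowest was 4600 bp for TGG1 and 6400 bp for TGG2, and the widest 36000 bp for both. The same rule gave BGLU34, a beta-glucosidase, and PUP19, a purine permease (median peak 20000 bp), CYP76C6, a cytochrome P450 (18800 bp), the heat shock factor gene HSFB4 (10800 bp), the cambium homeobox gene WOX4 (10400 bp), AT14A (7000 bp), GRP9, a glycine-rich protein (7200 bp), and the zinc finger gene GATA14 (4200 bp).

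A few of the widest domains differed between the Ler-background and Col-0-background libraries. The domain at chr3:17020001-17058000, which spans MEE39 and 6 other protein-coding genes, held between 6800 and 8200 bp of peak in the 8 libraries of the Ler group. It held 37200 and 34800 bp in Col-0 and 33400 and 35000 bp in ref6-3. At chr5:15103801-15129200 the Ler group held 4800 to 7600 bp and the Col-0 group 23200 to 25000 bp. The groups did not overlap at either place. These domains were chosen for their width over all libraries and the difference was not tested.

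The first comparison asked what the level of ULT1 did to the window peaks. Ler had 1329 and 1296 window peaks, ult1-2 had 1272 and 1334, and ult1-3 had 1191 and 1346. The 35S::ULT1 libraries had 1460 and 1488, more than any other library, and the other 3 genotypes overlapped. The Ler peaks covered 3.81 and 3.61 Mb and the 35S::ULT1 peaks 3.54 and 3.49 Mb, while ult1-2 had 3.90 and 3.96 Mb and ult1-3 had 3.59 and 4.13 Mb. So 35S::ULT1 had the most peaks and the least cover, although its margin below ult1-3 library 1 was small. Its median window peak was 1800 and 1600 bp wide, against 2000 and 1800 bp in Ler and 2000 bp in each ult1 library.

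**Figure D3:**
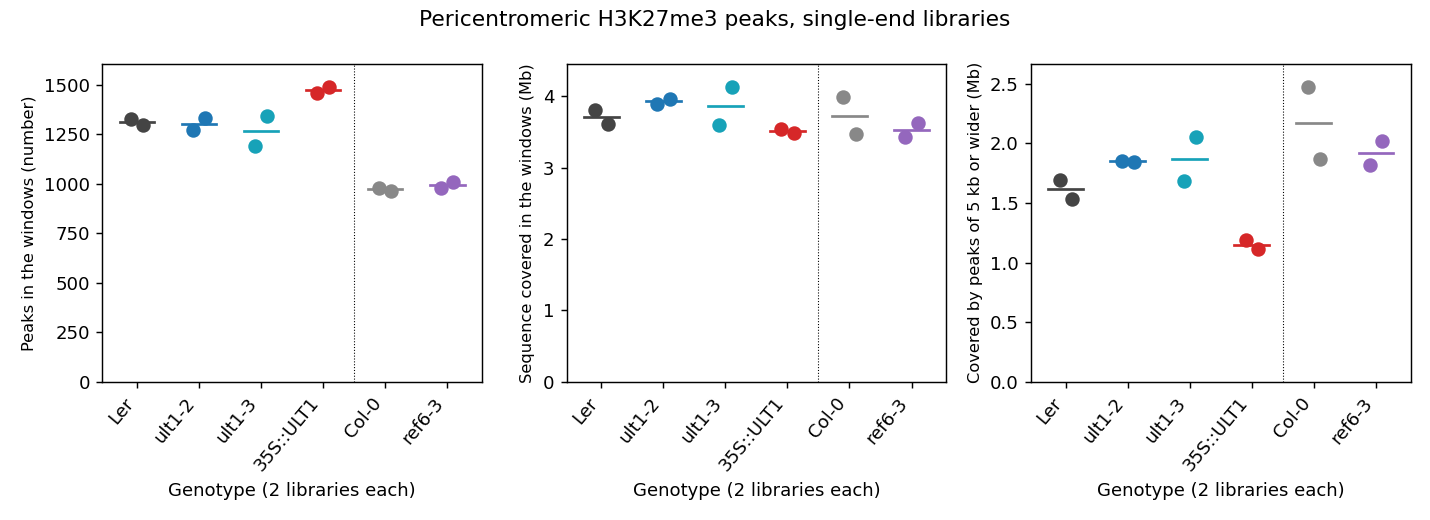
Number of pericentromeric H3K27me3 peaks, Mb covered by them and Mb covered by those of 5 kb or wider, in each single-end library (points) with the mean of 2 (line); the dotted line divides Ler-background from Col-0-background genotypes. 35S::ULT1 has the most peaks of its group and the least sequence in wide peaks.

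Across the 4 genotypes an exact permutation test over the 105 ways to pair 8 libraries asked whether libraries of a genotype were closer to each other than to other libraries. None of the first 4 measures passed in this exact permutation test: peak number (p = 0.143), covered bp (p = 0.343), median width (p = 0.286) and the number of marked genes (p = 0.324); the smallest p possible is 0.00952. Adjusted over 7 measures these p were 0.25 for peak number and 0.343 for the other 3. Without ult1-3 library 3, peak number and marked genes reached an exact p of 0.0286, and without ult1-3 library 1 covered bp did. When each list was limited to its 6379 peaks of lowest q, the order in peak number turned: 35S::ULT1 had 933 and 920 window peaks, Ler 1067 and 1048, ult1-2 1142 and 1120 and ult1-3 1080 and 1096 (exact p = 0.00952). Median widths turned as well, to 2600 bp in each 35S::ULT1 library and 2400 bp in each Ler library (exact p = 0.0857).

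The share of all covered sequence that lay in the windows did separate the genotypes. The 35S::ULT1 libraries had 13.0% and 12.8%, the Ler libraries 15.6% and 15.3%, those of ult1-2 16.9% and 16.5% and those of ult1-3 15.8% and 16.6%. Both 35S::ULT1 libraries lay below the other 6, and both libraries of each ult1 allele lay above both of Ler; without a stretch of chromosome 1 described further on, ult1-3 library 1 no longer did. The exact permutation test gave p = 0.019 (adjusted p = 0.0444 over 7 measures), as it did for the log2 ratio of window to arm cover, for which 35S::ULT1 minus Ler was -0.30. Both measures come from the same window and arm covers, so the ratio is not separate evidence. The adjustment counts them as separate measures and was not repeated with 1 of them left out. Among the alternatives tried p stayed under 0.05 except with the library numbers as blocks (exact permutation p = 0.0833). With peaks limited to 6379 per list the share was 12.6% and 12.4% in 35S::ULT1 against 15.4% and 15.1% in Ler.

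Covered bp in 35S::ULT1 differed from Ler by 16.9% in the arms and by -5.08% in the windows, and the number of peaks was 29.0% above Ler in the arms and 12.3% above it in the windows. Peaks of 5 kb or wider held 1.19 and 1.12 Mb of window sequence in 35S::ULT1, where Ler had 1.70 and 1.53 Mb, ult1-2 1.85 Mb in each and ult1-3 1.68 and 2.05 Mb. Both 35S::ULT1 libraries lay below all 6 others, with a difference of -28.7% between the means of 35S::ULT1 and Ler.

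The wide Ler peaks of the windows were less complete in 35S::ULT1. Of the bp in window peaks of 5 kb or wider of a Ler library, 86.6% (84.7% to 88.3% over the 4 pairs of libraries) was also covered in a 35S::ULT1 library, against 97.8% (96.6% to 99.0%) in the other Ler library. In the arms the values were 95.4% and 98.0%. Of those wide window peaks, 34.3% (31.0% to 37.4%) met more than 1 peak in 35S::ULT1, against 10.9% between the Ler libraries. One of the widest domains, at chr1:12267201-12295600 over 6 protein-coding genes, held 26200 bp of peak in each Ler library, 27400 and 26800 bp in ult1-2 and 27400 and 27600 bp in ult1-3. It held 17800 and 17200 bp in 35S::ULT1, below the Ler, ult1-2 and ult1-3 libraries.

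Of its window peaks, 12.5% and 13.9% touched no Ler peak, against 21.5% and 23.8% of its arm peaks, and the new window peaks had a median width of 800 bp. By a rule over both libraries, a domain was gained when a peak touched it in both mutant libraries and in neither wild-type library, and lost in the reverse case. A domain without a wild-type peak exists only because another of the 12 merged libraries has a peak there, the mutant's own included. In every comparison the share gained thus depends on the libraries merged and is not a rate of gain. In 35S::ULT1 155 of 495 window domains that could be gained were gained (31.3%), against 52.6% over the genome and 56.7% in the arms. Of 1026 that could be lost 56 were lost (5.46%), against 1.45% over the genome and 0.648% in the arms. With 6379 peaks per list the split turned to 25 gained and 119 lost in the windows, but the order of windows and arms held: 6.36% against 18.6% gained and 14.0% against 2.68% lost.

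The lost domains were narrower than window domains in general, and most touched no protein-coding gene. Their median width was 1400 bp, against 1000 bp for the gained domains and 2200 bp for all window domains. Of the 56 lost, 45 (80.4%) touched no protein-coding gene, against 50 of the 155 gained (32.3%). Pseudogenes were not counted here. The authors' fold over control was modest in both sets, with a median of 2.03 for lost and 1.97 for gained domains, where the median over all window peaks of Ler was 2.98 and 3.32. Lost domains spread over all 5 windows, with 7 on chromosome 1, 13 on chromosome 2, 10 on chromosome 3, 13 on chromosome 4 and 13 on chromosome 5. Of the gained domains 7 lay on chromosome 4, the fewest of any window. Without Ler library 3 the rule gave 93 lost domains, since 1 library fewer had to carry the peak.

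**Figure D4:**
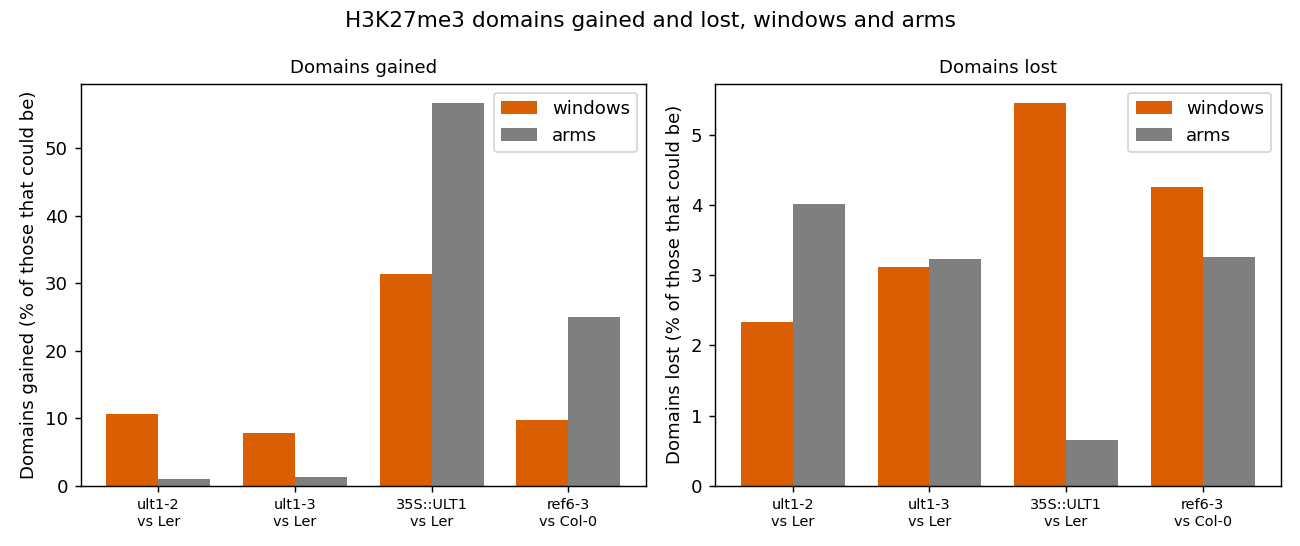
Percent of H3K27me3 domains gained (left) and lost (right) by the rule over both libraries, among those that could be, in the windows and in the arms for 4 single-end comparisons. In 35S::ULT1 the windows gained 31.3% against 56.7% in the arms and lost 5.46% against 0.648%.

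Among genes, 35S::ULT1 gained marks on 76 of 2391 unmarked window genes by the rule (3.18%, genome 5.81%) and lost them on 24 of 943 (2.55%, genome 0.89%). On the percent of gene body covered, limma called 46 window genes higher and 8 lower at an adjusted p under 0.05 over all genes tested, where the background over 11381 genes was 6.65% higher and 0.185% lower. The 10 genes gained with the largest difference included 5 of these calls. AT1G32375 went from 0% cover in both Ler libraries to 98.0% in both 35S::ULT1 libraries (limma, adjusted p = 0.0166). MSRB5, a methionine sulfoxide reductase, went from 0% to 93.4% in both (limma, adjusted p = 0.0175). AT1G43605, AT1G43680 and AT2G05600 went from 0% to 100% (limma, adjusted p = 0.0175, 0.019 and 0.0291).

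AT3G28875, AT3G44718, AT2G12461 and AT1G43600 were also gained by the rule but did not pass (limma, adjusted p = 0.0863, 0.938, 1 and 0.073). Of the 10 lost, AT3G44980, AT5G35890 and AT3G44580 passed (limma, adjusted p = 0.0207, 0.0313 and 0.0204). The first 2 stood at 100% cover in the 6 libraries of Ler, ult1-2 and ult1-3 and at 0% in both 35S::ULT1 libraries. Without the transgene, AT5G35890 also stood at 0% in both Col-0 and both ref6-3 libraries. AT3G44980 stood at 35.1% and 100% in Col-0 and 0% in both ref6-3 libraries. AT3G44580 went from 82.5% to 0%. The other 7 lost genes, from 108 to 618 bp long, did not pass. The floor of 200 bp on the residual SD is a larger percent of a shorter gene. A full change in both libraries can thus miss the threshold, so the test cannot decide for the shortest genes. AT4G04078, 108 bp long, went from 100% in both Ler libraries to 0% in both 35S::ULT1 libraries (limma, unadjusted p = 0.571). The same limit holds for short genes among the gained. The limma calls rest on every library: they numbered 0 without Ler library 1, Ler library 3 or 35S::ULT1 library 3 (123, 123 and 116 genes at an unadjusted p under 0.05), 14 without 35S::ULT1 library 1, and 0 with no filter on low cover (144 unadjusted). With 6379 peaks per list limma called 16 higher and 28 lower, and the rule gave 32 genes gained and 62 lost. Without Ler library 3 the rule gave 37 genes lost.

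Among merged domains without a Ler peak, both ult1 alleles gained a larger share in the windows than in the arms. The arm base of 2549 such domains includes 1446 gained in 35S::ULT1, against 155 of 495 in the windows. By number the arms gained 26 in ult1-2 and 35 in ult1-3. In ult1-2 53 of 495 window domains were gained (10.7%), against 2.6% over the genome and 1.02% in the arms. In ult1-3 39 were gained (7.88%), against 2.43% over the genome and 1.37% in the arms. Losses ran closer to the genome, with 24 of 1026 in ult1-2 (2.34%, genome 3.74%) and 32 in ult1-3 (3.12%, genome 3.22%). At 6379 peaks per list the windows again lay above the arms, at 16.3% against 2.32% in ult1-2 and 10.7% against 4.27% in ult1-3. Leaving out a library relaxes the rule, and ult1-2 gave 89 gained without its library 1, 80 without Ler library 1, 64 lost without its library 3 and 54 lost without Ler library 3. For ult1-3 the values were 108 gained without its library 1, 120 lost without its library 3 and 61 lost without Ler library 3.

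Of the gained domains, 31 of 53 in ult1-2 (58.5%) and 31 of 39 in ult1-3 (79.5%) touched no protein-coding gene, against 8 of 24 (33.3%) and 14 of 32 (43.75%) of the lost ones. On protein-coding genes the rule gave 31 genes gained in ult1-2 (1.3% of 2391, genome 0.422%) and 5 in ult1-3 (0.209%, genome 0.358%), and 18 lost in ult1-2 (1.91% of 943, genome 2.64%) and 17 in ult1-3 (1.8%, genome 2.1%). At 6379 peaks per list ult1-3 had 10 gained and 11 lost. Genes gained in ult1-2 numbered 59 without its library 1, and genes lost numbered 36 without its library 3 and 28 without Ler library 3. In ult1-3 the gained numbered 42 without its library 1, 8 without its library 3, 12 without Ler library 1 and 8 without Ler library 3, and the lost 65 without its library 3 and 29 without Ler library 3. The 2 mutants share the Ler controls, and their own values were set side by side. The 5 genes gained in ult1-3 were also gained in ult1-2: AT1G34440, AT1G36940, AT1G47680, AT3G28530 and RIC10, which encodes an effector of ROP GTPases. RIC10 stood at 22.9% cover in each Ler library, 84.0% and 91.7% in ult1-2 and 84.0% in each ult1-3 library, while the 35S::ULT1 libraries had 30.6%. Its levels in the ult1 alleles lay above those of Ler and 35S::ULT1 without overlap (limma, adjusted p = 0.276 for ult1-3), but below the 100% of both Col-0 and both ref6-3 libraries. Of the lost genes 9 were shared, among them the cytochrome P450 gene CYP79A3P and the ERF-family gene RAP2.1.

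LOG9, a cytokinin-activating enzyme, stood at 100% in both ult1-2 libraries and 0% in Ler, ult1-3 and 35S::ULT1 (limma, adjusted p = 0.221). ACP5, an acyl carrier protein, stood at 79.3% in both Ler libraries and 0% in ult1-2, with 0% and 79.3% in ult1-3 (limma, adjusted p = 0.852 for ult1-2). The bZIP gene bZIP48 stood at 96.2% in both Ler libraries and 0% in ult1-3, with 0% and 100% in ult1-2. At an adjusted p under 0.05 limma called 0 window genes in ult1-2, with 55 of 1393 tested at an unadjusted p under 0.05, and 0 in ult1-3, with 28 (genome 0% each). With no floor on the residual SD it called 49 and 37, and in a fit of only the 4 libraries compared 43 and 11. On simulated data with changes set in 35S::ULT1, the main fit recovered 0% of genes changed by 40 percentage points. Of genes changed by 80 points it recovered 72.6%. The 0 calls thus do not show that no window gene changed.

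Genes that ult1-2 gained were often ones marked in Col-0. LOG9, AT2G04810 and AT2G15327 stood at 100% in both ult1-2 and both Col-0 libraries and at 0% in Ler, ult1-3 and 35S::ULT1. Of the 31 genes gained in ult1-2 10 (32.3%) were marked in both Col-0 libraries, of the 5 in ult1-3 2 (40%), and of the 76 in 35S::ULT1 9 (11.8%). Of all 2391 window genes unmarked in Ler, 94 (3.93%) were marked in both Col-0 libraries. Conversely 10 of the 18 genes lost in ult1-2 (55.6%), 8 of 17 in ult1-3 (47.1%) and 10 of 24 in 35S::ULT1 (41.7%) were marked in neither Col-0 library, against 140 of 943 marked in Ler (14.8%). No test was made of these shares, and the genetic background of the lines was not tested.

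A stretch of the chromosome 1 window stood apart in ult1-3. Between 14174201 and 15603800, 1.43 Mb around the middle of the window, neither Ler library nor the paired-end Col-0 list had a peak. The stretch was chosen after the peaks were seen, so the lack of peaks in those lists is not an independent result. In ult1-3 the single-end libraries had 19 and 22 peaks there, covering 76.2 and 197.2 kb, the widest being chr1:15091401-15117400. The other single-end libraries had at most 2 peaks and 5.4 kb. The 3 paired-end lists with the ult1-3 allele, which the study's design text gives as Col-0 background, also had peaks there: 37 in ult1-3 (125.0 kb), 20 in ult1-3 swn-7 (78.6 kb) and 47 in ult1-3 clf-28 (286.0 kb). Their widest peaks measured 55.0, 54.6 and 56.4 kb. The swn-7 and Col-0 lists had none, and clf-28 had 5 (8.0 kb).

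These peaks were weak over the control. In the 2 single-end ult1-3 libraries their median fold over control was 1.17 and 1.163, against 3.09 and 3.16 over all peaks of those lists, and control reads per kb were 1.66 and 1.83 times the list's median. The stretch holds 14 protein-coding genes, of which 1 was touched by a peak of ult1-3, and 153 pseudogenes. The part of the raised control depth in this result was not tested. Without the stretch ult1-3 gained 25 window domains rather than 39, and without peaks of fold under 1.5 it gained 24. Without the stretch the share of covered bp in the windows was 15.5% and 15.9% in ult1-3, and the exact permutation p over the 4 genotypes remained 0.019.

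Window peak sets were on average more alike within genotypes of the Ler group than between them. The Jaccard index, the bp shared by 2 libraries over the bp covered in either, averaged 0.892 over the 4 pairs of libraries of one genotype in the Ler group (0.847 to 0.912) and 0.776 over 24 pairs of different genotypes (0.673 to 0.854). The difference gave the smallest p of the exact permutation test (p = 0.00952, adjusted p = 0.0444). This adjusted p also depends on the share and the window to arm ratio, related measures that the adjustment counts separately. Pairs of 35S::ULT1 with another genotype averaged 0.714 (0.673 to 0.777), and pairs of different genotypes without 35S::ULT1 averaged 0.838 (0.819 to 0.854). The order did not hold for each genotype: the ult1-3 libraries had 0.847 with each other. Library 3 of ult1-3 had 0.854 with library 3 of ult1-2.

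The second comparison asked how loss of the demethylase REF6 changed the window peaks. Col-0 had 981 and 966 window peaks and ref6-3 had 977 and 1010, and the genotypes overlapped. Covered sequence was 4.00 and 3.47 Mb in Col-0 and 3.44 and 3.63 Mb in ref6-3, also overlapping. In the arms ref6-3 covered 21.4 and 23.2 Mb and Col-0 21.6 and 19.6 Mb. The windows' share of covered bp was 15.6% and 15.1% in Col-0 and 13.8% and 13.5% in ref6-3, without overlap. With 2 libraries against 2 the exact permutation test cannot go below p = 0.333, which the share, the window to arm ratio and the number of marked genes reached.

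Marked window genes numbered 906 and 881 in Col-0 and 907 and 959 in ref6-3, on average 4.42% more, while in the arms ref6-3 had 22.0% more. In ref6-3, 66 of 679 window domains were gained (9.72%), against 22.1% over the genome and 25.0% in the arms, and 34 of 799 were lost (4.26%), against 3.41% over the genome and 3.26% in the arms. With 6379 peaks per list 54 domains were gained and 75 lost, and 81 genes gained and 54 lost. Lost domains came to 107 when Col-0 library 2 was left out and 76 when ref6-3 library 2 was. The gained domains had a median width of 1700 bp, and 11 of the 66 (16.7%) touched no protein-coding gene.

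On genes limma called 107 window genes higher and 48 lower in ref6-3, where the background over 10243 genes was 15.6% higher and 2.63% lower and 1215 of them lay in the windows. By the rule 88 of 2439 were gained (3.61%, genome 6.75%) and 36 of 846 lost (4.26%, genome 3.36%). The limma calls numbered 62 to 90 when 1 library was left out: 82 and 90 when it was library 1 or 2 of Col-0, and 78 and 62 when it was library 1 or 2 of ref6-3. Genes lost by the rule came to 70 when Col-0 library 2 was left out and 64 when ref6-3 library 2 was.

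Among the genes that ref6-3 gained, from 0% cover in both Col-0 libraries to 100% in both mutant libraries, were pBRP2, a TFIIB-related gene, NAC094, a NAC transcription factor, and WPP3 (limma, adjusted p = 1.43e-06 each). Where both libraries of each genotype have equal cover, as here, the floor on the residual SD enters the p-value in place of a measured spread. Of the 10 lost, 8 passed. CYP71B38, a cytochrome P450, and AT5G39160 and AT5G39170 went from 100% in both Col-0 libraries to 0% in ref6-3 (limma, adjusted p = 1.43e-06 each). The last 2 and AT5G39180 lie in 1 domain at chr5:15675401-15685000, of which peaks covered 9100 bp on average in Col-0 and 0 bp in ref6-3. The fold over control there was 1.32 in the median Col-0 peak. AT2G15340, AT4G08895, AT1G35242, AT5G39180 and AT2G16385 also passed, and the short genes AT3G45252 and AT3G42148 did not (limma, adjusted p = 0.0579 and 1). At 317 and 108 bp long, these 2 have the largest floors of the 10, so their failure to pass shows little about the mark.

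Gene families were also picked by symbol. How reads of near-identical family members were placed is unknown, as the sources used here do not give it. Of 18 defensin-like genes in the windows 3 were marked in both Col-0 libraries and 1 in both ref6-3 libraries; of 8 receptor-like protein (RLP) genes 3 and 1; and of 7 cysteine-rich receptor kinase (CRK) genes 3 and 5. Of 13 NAC genes 3 and 6 were marked, of 16 cytochrome P450 genes 13 and 12, and of 11 MYB genes 8 and 8. WRKY (3 genes, 1 and 2), ABC transporter (14 genes, 3 and 4), UGT (6 genes, 1 and 1) and AGP genes (3 genes, 0 and 1) were few. Of 9 ribosomal protein genes, used in every cell, 8 were unmarked in all 12 libraries. No bHLH or JAL symbol lay in the windows. In 35S::ULT1 the rule gave 1 gain each for CYP705A6, NAC6, WRKY74, LCR10 and RLP52. Over all unmarked window genes 3.18% of 2391 were gained in 35S::ULT1. Of all 3380 protein-coding window genes, a mean of 26.4% per library were marked in Col-0 and 27.6% in ref6-3. The family counts are small and were not tested against these shares.

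The paired-end lists allow a comparison with the Polycomb methyltransferase mutants, without replicates and thus without a test. None of these 6 lists holds a peak on chromosome 4 between 1246401 and 6571800, where each single-end library had 138 to 189 peaks. All paired-end values therefore cover chromosomes 1, 2, 3 and 5, a choice made after the lists were seen. The single-end Col-0 libraries had 874 and 862 window peaks on these chromosomes and the paired-end Col-0 list 721, so no level was tested between the series; values of both are set side by side for single genes and for the chromosome 1 stretch.

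Window peaks were narrowest in clf-28. Col-0 had 721 window peaks that covered 2.37 Mb with a median width of 2400 bp. The clf-28 list had 844 peaks over 1.92 Mb (a change of -19%) with a median of 1800 bp, and 0.380 Mb in peaks of 5 kb or wider against 1.04 Mb in Col-0. The swn-7 list had 761 peaks over 2.78 Mb (17.7% more) with a median of 2600 bp. In the arms the change from Col-0 was -29.4% in clf-28 and 7.95% in swn-7. In both lists the change in the windows was thus the higher of the 2 values.

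The lists with ult1-3 had the same order. The ult1-3 list had 780 window peaks over 2.77 Mb (17.2% more than Col-0), while the change in its arms was -7.11%. The ult1-3 swn-7 list had 731 peaks over 3.05 Mb (28.8% more), with 8.42% more in the arms. The ult1-3 clf-28 list had 644 peaks over 1.87 Mb (a change of -20.8%), with -53.8% in the arms. Its share of covered bp in the windows was 22.6%, the highest of the 6 lists, against 14.6% in Col-0, 15.7% in swn-7, 16.4% in clf-28, 16.8% in ult1-3 swn-7 and 17.7% in ult1-3. Without the chromosome 1 stretch the change in window cover from Col-0 was 11.9% in ult1-3, 25.5% in ult1-3 swn-7 and -32.9% in ult1-3 clf-28, and the share in ult1-3 clf-28 was 19.9%.

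**Figure D5:**
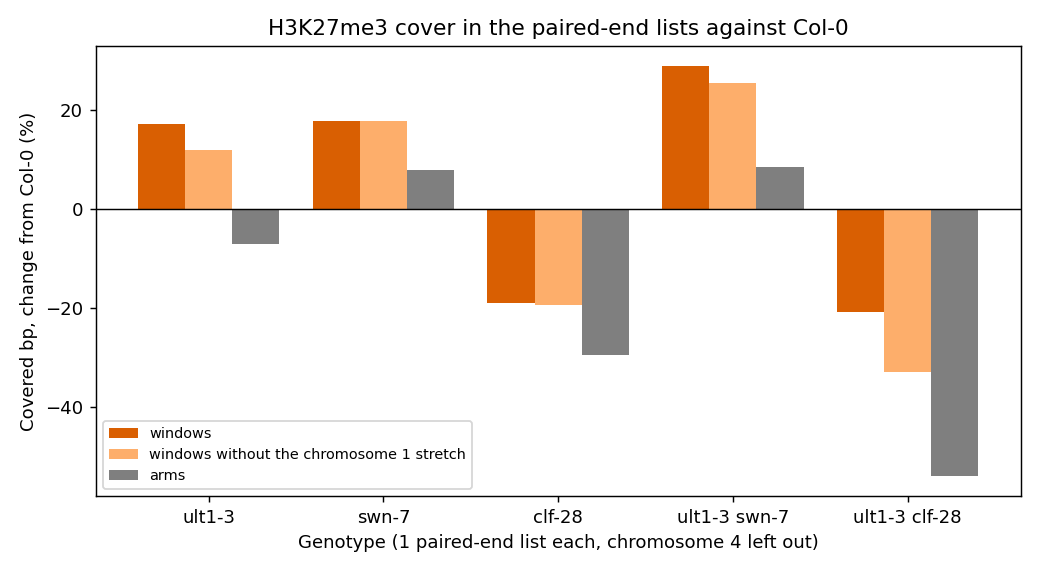
Change in covered bp against the paired-end Col-0 list, in percent, for the windows, the windows without the chromosome 1 stretch and the arms; 1 list per genotype, chromosome 4 left out, so no error can be shown. In each of the 5 mutant lists the windows lie above the arms.

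The window peaks also lay in partly different places. Of the bp of the Col-0 window peaks, the ult1-3 list also covered 89.4%, swn-7 93.2%, ult1-3 swn-7 92.8%, clf-28 53.6% and ult1-3 clf-28 43.5%. Of the clf-28 window peaks 29.4% touched no Col-0 peak, and of those of ult1-3 clf-28 35.6%, against 19.8% and 13.1% of their arm peaks. In ult1-3 the values were 20.1% in the windows and 9.05% in the arms.

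By the 50% cover rule in 1 list each, ult1-3 gained 5.45% of 2311 window genes (genome 3.07%) and lost 44 of 635 (6.93%, genome 14.1%). The swn-7 list gained 107 (4.63%, genome 2.98%) and lost 32 (5.04%, genome 8.43%). The clf-28 list gained 157 (6.79%, genome 5.24%) and lost 189 (29.8%, genome 29.7%), its loss in the windows thus near that of the genome. The ult1-3 swn-7 list gained 113 (4.89%, genome 2.69%) and lost 43 (6.77%, genome 11.7%). The ult1-3 clf-28 list gained 67 (2.9%, genome 1.24%) and lost 293 (46.1%, genome 51.3%).

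Among named genes, ASD2, an arabinofuranosidase, and PP2-A4, a phloem protein, stood at 100% cover in the Col-0, ult1-3, swn-7 and ult1-3 swn-7 lists and at 0% in both lists with clf-28. SnRK1.3, a kinase subunit, also stood at 100% in Col-0 and 0% in clf-28. In ult1-3 clf-28, LOG9 and MEE39 stood at 0%, against 35.5% and 72.4% in clf-28 and 100% in Col-0. So LOG9 and MEE39 kept part of their cover in the single mutant list and none in the double.

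In the other direction, the germin gene GER2 stood at 100% in ult1-3 and ult1-3 clf-28 and 0% in the other 4 lists, paired-end Col-0 included, while both single-end Col-0 libraries had 100%. SEF, a subunit of the SWR1 chromatin remodeller, stood at 100% in ult1-3 and clf-28, 10.5% in ult1-3 clf-28 and 0% in Col-0, swn-7 and ult1-3 swn-7. DYW1, an RNA editing factor, was at 0% in the paired-end Col-0 list and at 0% in all 12 single-end libraries, but at 100% in ult1-3 and clf-28, 74.7% in swn-7 and ult1-3 swn-7 and 7.09% in ult1-3 clf-28. UMAMIT3, a transporter, stood at 100% in clf-28 and 19.4% in swn-7, with 0% in Col-0.

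Several genes higher in the swn-7 lists were marked in the single-end Col-0 libraries. RGF8, a root growth factor peptide, stood at 97.9% in swn-7 and ult1-3, 100% in ult1-3 swn-7 and 0% in paired-end Col-0, but at 100% in both single-end Col-0 libraries. TET13, a tetraspanin, stood at 100% in swn-7 and ult1-3 swn-7, 83.8% in ult1-3 and 0% in paired-end Col-0, and at 100% and 65.3% in single-end Col-0. FAMT, a methyltransferase, stood at 87.7% in swn-7, and TED6, of xylem vessel differentiation, at 82.0%, each with 0% in paired-end Col-0. GLP6, BGLU1 and MYB48 stood at 100% in ult1-3 swn-7 and 0% in Col-0, and BGLU1 and MYB48 also at 92.9% and 93.3% in ult1-3, while SDH5, a succinate dehydrogenase subunit, stood at 100% in paired-end Col-0 and 0% in ult1-3 swn-7, but at 0% in all 12 single-end libraries. In single-end Col-0, FAMT stood at 87.7% and 85.8%, TED6 and GLP6 at 100% in both libraries, BGLU1 at 100% and 98.9%, and MYB48 at 61.2% in both. Further cases were hda10 and UMAMIT43-psi, each at 100% in ult1-3 and 0% in paired-end Col-0. In single-end Col-0 hda10 stood at 100% in both libraries and UMAMIT43-psi at 0% and 52.8%.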

How the data were processed

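Peak lists of H3K27me3 ChIP-seq from 12 single-end libraries and 6 paired-end genotypes, and K4 lists of the single-end genotypes, were used as deposited on TAIR10. Per the submitters' processing notes the tools included SICER 1.1, CASAVA 1.8.2, BWA 0.6.2-r126, bedtools 2.17.0-97, Picard 1.93 and SAMtools 0.1.19. For the paired-end samples the notes also name BWA 0.7.17-r1188, SAMtools 1.16.1, Picard 2.26.10 and bedtools 2.30.0. The sources used here give neither their settings nor the control of each list, and the files carry no header line. By column order and values, the single-end lists deposited by the authors hold raw read counts of ChIP and control, a fold (ratio over control) and a q-value per peak, the largest being 9.98e-05. The paired-end lists deposited by the authors hold 1 score of unstated unit, used only to rank peaks. The ChIP reads in peaks numbered 8.79 to 22.4 M per single-end library. For the paired-end libraries the depth, and how 2 libraries became 1 list, are not stated in these sources. Peaks lie on steps of 200 bp, which limits widths. Neighbouring peaks are at least 600 bp apart. Peaks on other sequences (3 in the single-end lists) were left out.

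Window bounds and members, and all lists, were chosen with earlier results of these data known. Gene positions came from the RefSeq table of TAIR10.1; K4 cover of window genes was highest with a shift of 0 bp between table and lists. No genome was used, so no sequences or motifs are shown. Genotypes were compared by exact permutation over libraries (two-sided, but one-sided for peak-set similarity), windows with arms by a sign-flip exact permutation test, and percent of gene body covered by limma 3.58.1 in R 4.3.3 (trend, robust, residual SD floored at 200 bp of gene length, genes covered in at least 1 library, Benjamini-Hochberg over all genes), after the script was tested on simulated data. Named genes were, per comparison, the up to 10 gained and 10 lost with the largest difference in cover (ties by symbol, then limma p), the 10 with a symbol under the widest peaks marked in all 18 lists, per paired-end mutant the up to 6 with a symbol and the largest difference from Col-0, and families picked by symbol. Some genes that the rule names are not reported here. Gene names outside these rules were chosen after their values were seen. Scripts ran in Python 3.11.15 with pandas 2.3.3 and NumPy 2.4.6, and matplotlib 3.10.9 drew the figures. Alternatives changed the q threshold, the number of peaks, window bounds, narrow peaks, cover minimum and the libraries.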

Additional observations from a re-analysis of the deposited data

Results flagged for a closer look

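The difference between windows and arms in the percent of protein-coding genes marked was not the same in all genotypes. Windows minus arms was -0.72 ± 0.231 percentage points in 35S::ULT1, against 2.92 ± 0.0165 in Ler, 4.57 ± 0.0393 in ult1-2 and 3.15 ± 0.644 in ult1-3 (SD, n = 2 libraries each). An exact permutation test of this difference over the 4 genotypes gave p = 0.0286, where the smallest possible is 0.00952. It was not among the planned tests and its p is not adjusted. Over all 12 libraries the direction of windows minus arms turned with narrower windows, and values per genotype with other bounds are not given here. The windows were above the arms in both Ler libraries and below them in both 35S::ULT1 libraries. In the Col-0 group the values were 2.43 ± 0.602 in Col-0 and -1.69 ± 0.0528 in ref6-3, with every library of one genotype above zero and every library of the other below. That difference was not tested, since an exact permutation of 2 libraries against 2 cannot go below p = 0.333.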

How the results depend on the processing

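Of 513 values recomputed for 54 results, 431 kept their direction and their side of the threshold or stayed within 1.5 times the count; 8 lost and 5 gained significance, 7 turned direction and 62 moved, and the cause was not tested. Leaving out chromosome 4, the chromosome 1 stretch or peaks of fold under 1.5 was chosen after seeing the data. With 6379 peaks per list the direction turned for Ler-group peak number (exact permutation p = 0.00952), median width (p = 0.0857) and marked genes (p = 0.171), and for ref6-3 peak number (p = 0.333) and width (p = 0.667). Between windows and arms the width difference was -125 bp at q at or under 1e-10 and -66.7 bp with wider windows, the marked genes 1.1602 points with wider and -1.56 with narrower windows, and log2 control reads 0.067 with narrower windows. With 6379 peaks per list 35S::ULT1 had 25 domains gained, 119 lost, 32 genes gained and 62 lost, ref6-3 had 75 domains lost, and ult1-3 had 10 genes gained and 11 lost. Domains lost when a peak had to cover 50% of the domain numbered 102 in 35S::ULT1 and 59 in ref6-3. At a cover minimum of 80%, ult1-2 lost 10 genes and ult1-3 gained 11; at 20% ult1-3 gained 8. The ult1-3 domains gained numbered 25 without the stretch and 24 without low-fold peaks, which also left 11 genes lost. With no SD floor limma called 222 window genes in 35S::ULT1, 49 in ult1-2 and 37 in ult1-3. With only the 4 libraries compared it called 110, 43 and 11, and 0 in 35S::ULT1 with no filter. The paired-end log2 ratio of window to arm cover against Col-0 was 0.275 (wider windows) and 0.269 (no stretch) in ult1-3, 0.320 (narrower) in clf-28, 0.281 (equal numbers) and 0.211 (no stretch) in ult1-3 swn-7, and 0.662 (wider), 1.07 (narrower) and 0.540 (no stretch) in ult1-3 clf-28.

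Leaving out 1 library gave exact permutation p of 0.0286 to 0.362 for Ler-group peak number, 0.0286 to 0.610 for covered bp and 0.0286 to 0.610 for marked genes; for ref6-3 covered bp p was 0.333 to 1, with the direction turned without Col-0 library 1 (p = 1). Windows minus arms was 1.52 to 2.10 points for marked genes and 0.0228 to 0.0454 for log2 control reads. Domains gained and lost were 57 to 89 and 33 to 64 in ult1-2, 42 to 108 and 36 to 120 in ult1-3, 164 to 189 and 65 to 93 in 35S::ULT1, and 78 to 88 and 42 to 107 in ref6-3. Genes gained and lost were 35 to 59 and 23 to 36, 8 to 42 and 18 to 65, 85 to 97 and 29 to 37, and 91 to 114 and 45 to 70 in the same order. limma calls were 0 to 14 in 35S::ULT1 and 62 to 90 in ref6-3.

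Same-numbered libraries of ult1-2 and ult1-3 deviated together (correlation 0.444), but those of the other genotype pairs did not (-0.03 to 0.05), and the labels do not say what a number shares, so the samples were not treated as paired. With library number as a replicate block the share and the window to arm ratio had an exact permutation p of 0.0833, and limma called 96 window genes in ref6-3.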
